A study of Homo sapiens with 12 samples.

Results

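The general androgen response genes are 52 genes known mainly from prostate cells treated with androgen, taken by gene symbol from the 60670 genes of the count table. Lipid, keratin, polyamine and prostate-marker genes of that response were left out of the list. All 52 were found, and 46 passed the filter on low counts and were tested. RNA came from MDA-MB-453, an established human breast cancer cell line, kept for 72 h in DMEM (high glucose) plus 10% serum. The groups were 6 libraries from cells given 10 nM dihydrotestosterone (DHT) for 6 h and 6 libraries from cells given vehicle, 0.001% ethanol, for 6 h. The libraries of a group came from consecutive passages of this 1 line, so their spread is that between passages and p-values describe this line only. Total counts ran from 9486951 (DHT replicate 6) to 25678781 (DHT replicate 2) in DHT libraries and from 4346465 (replicate 6) to 16963880 (replicate 2) in Vehicle libraries.

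Androgens such as DHT and testosterone are steroid hormones that change transcription within hours, and DNA near many of the genes they raise holds androgen response elements, a pair of inverted hexamers. In prostate cells androgens raise genes of secretion, vesicle traffic, protein glycosylation, metabolism and kinase signalling, and these make up most of the list. Breast tumours of the apocrine type also respond to androgens, and MDA-MB-453 is a common model of them.

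Markers of the line were found, given in CPM (counts scaled to a common library total of 1000000). ERBB2 averaged 724 CPM in DHT and 1263 CPM in Vehicle libraries, FOXA1 363 and 612 CPM, GATA3 601 and 908 CPM and KRT18 189 and 276 CPM, whereas the estrogen receptor gene ESR1 stayed at or under 0.337 CPM in each DHT library and 0.641 CPM in each Vehicle library. In edgeR, FOXA1 (log2 fold change -0.75, adjusted p = 0.0046) and GATA3 (-0.59, adjusted p = 0.025) passed as lowered with DHT. ERBB2 and KRT18 did not pass. Of other cell types, 7 fibroblast markers summed to 59.9 to 75.9 CPM in DHT and 76.5 to 111 CPM in Vehicle libraries, most of it COL1A1 (62.1 and 79.9 CPM on average), and 0 of the 7 were at 0 in all libraries. The 3 of these that were tested did not pass, and the part of this difference in the results was not tested. The 5 leukocyte markers summed to at most 0.337 CPM in DHT and 0.855 CPM in Vehicle libraries, with 2 of the 5 at 0 throughout, and the 5 endothelial markers to at most 0.794 and 1.55 CPM. Both replicate 2 libraries stood apart on the first principal component, at 69.1 (DHT) and 76.8 (Vehicle), and Vehicle replicate 5 on the second, at 49.0, so results are also given without them where they differ. In bulk RNA, fewer cells carrying a transcript and less of it per cell cannot be told apart.

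Of the 46 tested members, 6 rose with DHT, 1 fell and 39 did not pass an adjusted p of 0.05 in edgeR's quasi-likelihood test. The raised members were IQGAP2, ADAMTS1, PTK2B, ZBTB10, RAB4A and PPP2CB, and the lowered one was MAF. Among all 16355 genes tested, 2.84% passed, 1.96% raised and 0.880% lowered, against 15.2% of the tested members, 13.0% raised and 2.17% lowered. The members were chosen with earlier results of these data known, so these shares only describe the list, and their difference was not tested. Fold changes are DHT over Vehicle, as edgeR estimates with their standard error (SE), and adjusted p is by Benjamini-Hochberg over all genes tested. The median log2 fold change was 0.09 for the members and -0.05 for all genes tested. Values above 0 were found for 29 of the 46 members (63.0%) and for 41.8% of all genes. By level, 1 of 29 members averaging at least 50 CPM was raised, against 115 of 5053 genes at that level. At 10 to 50 CPM 4 of 8 members were raised, against 126 of 5190 genes, and under 10 CPM 1 of 9, against 79 of 6112. Only 3 of the 6 rises, and the single fall, reached 2-fold. In 5 members every DHT library lay above every Vehicle library, against 2.28% of all genes, and in 0 members did every DHT library lie below, against 0.991% of all genes. Without both replicate 2 libraries the same 7 members passed, against 5.59% of all genes. DESeq2 called 8 members, these 7 and UAP1, against 4.09% of all genes.

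**Figure D1:**
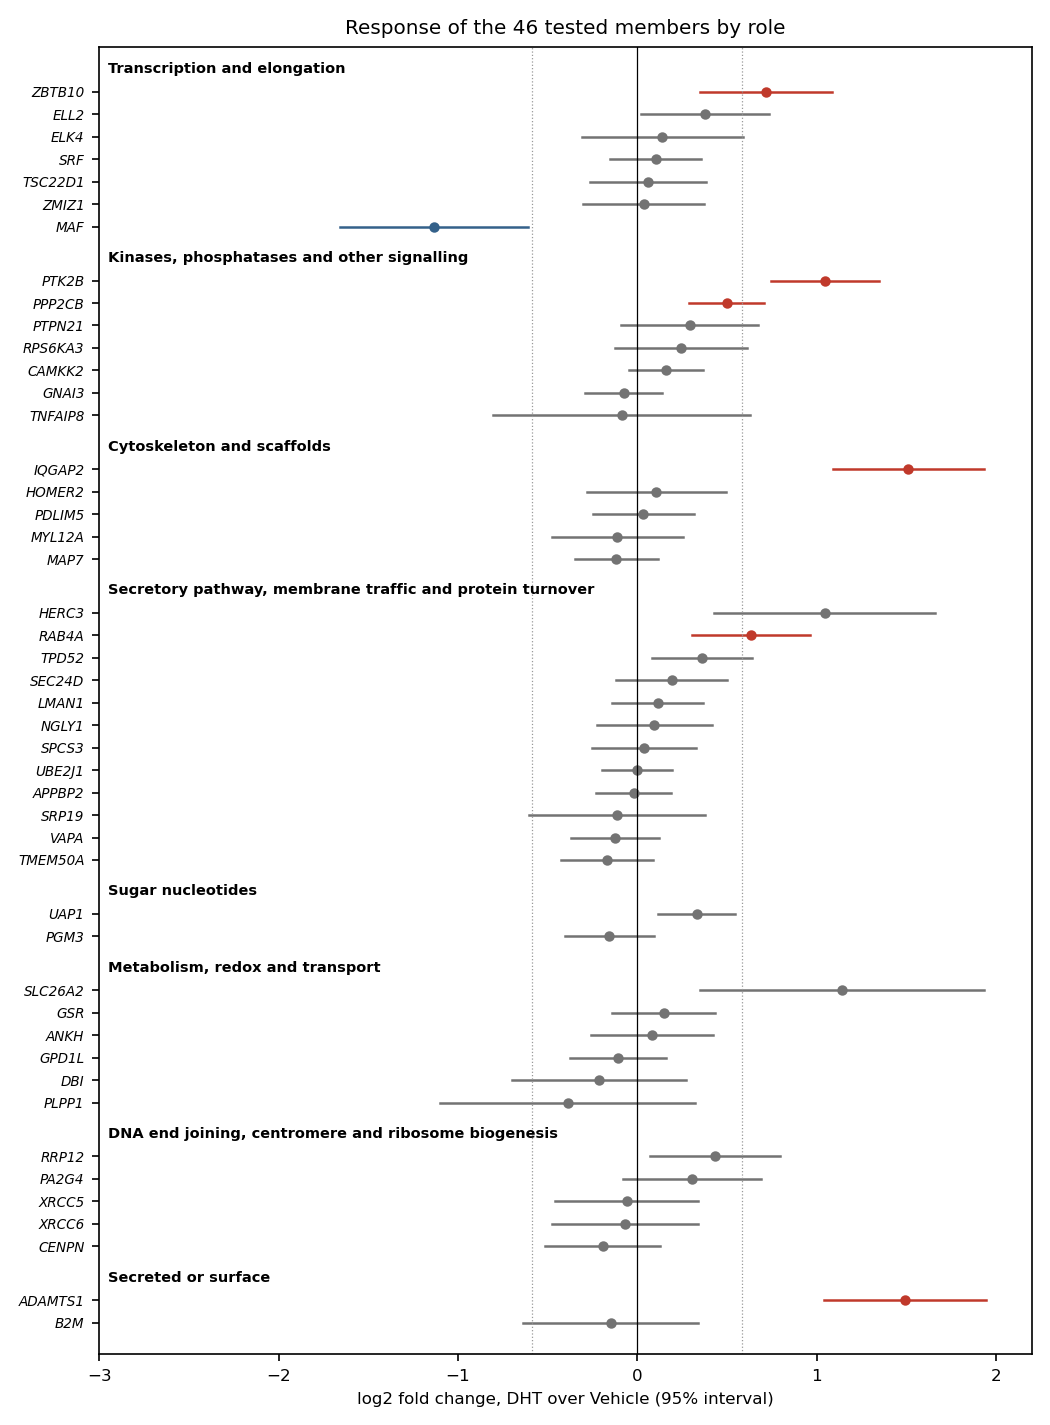
Log2 fold change, DHT over Vehicle, of the 46 tested members, grouped by role. Points are edgeR estimates, lines are 95% intervals, dotted lines mark a 1.5-fold change, red is raised, blue is lowered and grey did not pass. Of the 46, 6 are red and 1, MAF, is blue.

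**Figure D2:**
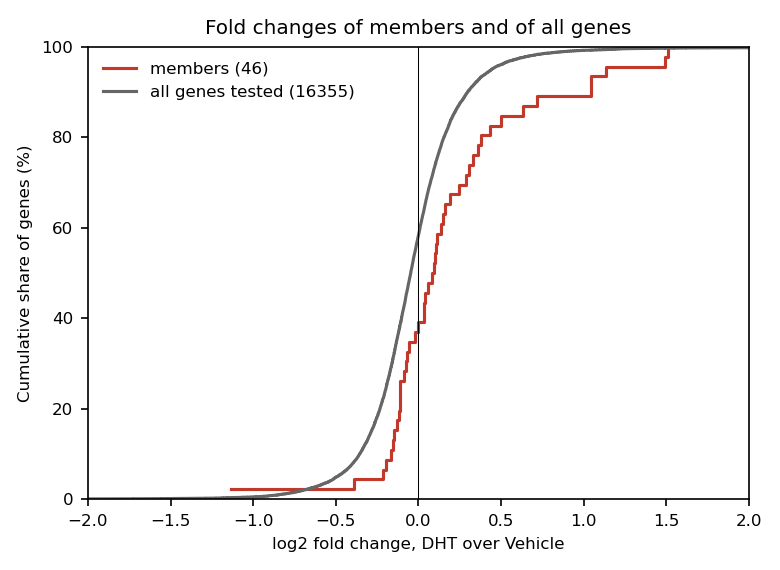
Cumulative share of genes (%) by log2 fold change, DHT over Vehicle, for the 46 tested members (red) and all 16355 tested genes (grey). The members' curve crosses its median at 0.09 and that of all genes at -0.05.

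Among the members that act in transcription, ZBTB10 rose and MAF fell, while ELL2, ELK4, SRF, TSC22D1 and ZMIZ1 did not pass. Over all genes 1.96% were raised and 0.880% lowered, and these 7 members were not tested as a group. ZBTB10 encodes a zinc-finger protein that represses genes with GC-rich Sp-factor sites. It was a low transcript, at 3.64, 2.92, 2.28, 3.24, 2.81 and 2.88 CPM in DHT replicates 1 to 6 and 1.56, 1.56, 1.84, 2.21, 1.61 and 2.14 CPM in Vehicle replicates 1 to 6. The DHT and Vehicle values did not overlap, although DHT replicate 3 and Vehicle replicate 4 came close (log2 fold change 0.72, SE 0.17, adjusted p = 0.0386). The call held without DHT replicate 3 or Vehicle replicate 4 and was lost without any other single library, with adjusted p between 0.0512 and 0.113 and a log2 fold change of 0.65 to 0.79 over all 12 omissions.

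MAF encodes a basic leucine zipper transcription factor. It had 1.89, 1.78, 1.94, 1.75, 4.09 and 2.38 CPM in DHT replicates 1 to 6, against 6.89, 3.86, 4.53, 5.31, 3.72 and 5.98 CPM in Vehicle replicates 1 to 6. DHT replicate 5 lay among the Vehicle libraries and was the only DHT library above its same-numbered Vehicle library. The fall was 2.30 ± 0.903 against 5.05 ± 1.25 CPM (SD, n = 6 each; log2 fold change -1.13, SE 0.24, adjusted p = 0.0220). The call was lost without any of DHT replicates 1, 3, 4 or 6 or Vehicle replicates 1, 4 or 6 (adjusted p 0.0509 to 0.0663), and was firmest without DHT replicate 5 (-1.37, adjusted p = 0.00321). The gene lies on chromosome 16, minus strand, from 79585843 to 79600737 on GRCh38, and shares no exon with another gene of the table. Its RefSeq promoter window, 250 bases before to 50 bases after the start (GRCh38.p14, chr16:79600688-79600987, minus strand), is shown because it belongs to the only lowered member. It holds no androgen hexamer (AGAACA, or TGTTCT on the other strand), so it has no capitals.
MAF promoter: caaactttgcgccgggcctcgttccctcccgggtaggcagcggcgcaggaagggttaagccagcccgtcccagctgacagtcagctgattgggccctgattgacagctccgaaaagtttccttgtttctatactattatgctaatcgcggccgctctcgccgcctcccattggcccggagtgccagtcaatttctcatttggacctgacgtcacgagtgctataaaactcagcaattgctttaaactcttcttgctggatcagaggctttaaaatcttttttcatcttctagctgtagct

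The remaining transcription genes were well measured. ELL2, a subunit of the super elongation complex that releases paused RNA polymerase II, averaged 130 ± 20.1 CPM in DHT and 99.9 ± 24.8 CPM in Vehicle libraries with DHT the higher of each of the 6 same-numbered libraries. It missed the threshold (adjusted p = 0.370, log2 fold change 0.38, SE 0.17). Same-numbered libraries were not taken as pairs, and GSR, at an adjusted p of 0.81, also had DHT the higher at all 6 numbers. SRF, which drives cytoskeletal and immediate early genes, averaged 55.0 ± 5.58 and 51.3 ± 8.17 CPM, and its ETS-family partner ELK4 109 ± 28.6 and 98.6 ± 23.3 CPM. TSC22D1, a leucine zipper protein induced by TGF-beta, averaged 357 ± 74.5 and 342 ± 54.5 CPM. ZMIZ1, a PIAS-like transcriptional coactivator, averaged 202 ± 22.5 CPM in DHT and 198 ± 46.7 CPM in Vehicle libraries. The 95% intervals of SRF (0.901 to 1.28-fold), TSC22D1 (0.833 to 1.31-fold) and ZMIZ1 (0.812 to 1.29-fold) lay within a 1.5-fold change either way.

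Of the signalling members, 2 of 7 tested rose and 0 fell in edgeR, with 0 lower at an unadjusted p under 0.05 too and 0 lowered members of this group in DESeq2 or limma-voom. Over all genes 1.96% were raised, 0.880% lowered and 5.41% lower at an unadjusted p under 0.05. Among 7 genes, 0 lowered cannot be told from these shares. PTK2B, the calcium-responsive tyrosine kinase PYK2 of the focal adhesion kinase family, had 24.3, 20.4, 20.6, 22.3, 23.4 and 26.0 CPM in DHT replicates 1 to 6, against 13.2, 11.6, 11.6, 10.4, 7.45 and 12.2 CPM in Vehicle replicates 1 to 6. The lowest DHT library lay well above the highest Vehicle library. The rise was 2.06-fold (95% interval 1.68 to 2.54; log2 fold change 1.04, SE 0.14, adjusted p = 8.19e-04), and it passed without any single library (0.95 to 1.11, adjusted p at most 0.00383). PPP2CB, a catalytic subunit of protein phosphatase 2A, had 41.0, 40.0, 35.3, 39.6, 36.2 and 41.3 CPM in DHT replicates 1 to 6 and 29.6, 30.7, 27.0, 26.9, 23.3 and 27.8 CPM in Vehicle replicates 1 to 6. Its change was small but its replicates were tight, and the groups did not overlap (1.41-fold, interval 1.22 to 1.63; log2 fold change 0.50, SE 0.10, adjusted p = 0.0126; passing in all 12 omissions). The authors' deposited table gives PPP2CB a log2 fold change of 0.52 with an adjusted p of 0.160 there, and ZBTB10 0.55 with 0.325, so neither passes in it.

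Other kinases and regulators did not pass. CAMKK2, the calcium and calmodulin-dependent kinase that activates AMPK and a well-known androgen-raised gene in prostate cancer, averaged 64.2 ± 3.93 CPM in DHT and 57.5 ± 5.75 CPM in Vehicle libraries (adjusted p = 0.609). Its interval was 0.970 to 1.29-fold, so a rise of 1.5-fold lay outside it. RPS6KA3, the ribosomal S6 kinase RSK2 downstream of ERK, averaged 28.7 ± 4.14 and 24.2 ± 6.32 CPM, and the tyrosine phosphatase PTPN21 6.09 ± 1.09 and 4.94 ± 1.07 CPM. GNAI3, an inhibitory G protein subunit, averaged 133 ± 9.58 CPM in DHT and 140 ± 14.98 CPM in Vehicle libraries, with an interval of 0.818 to 1.10-fold. TNFAIP8, a regulator of cell death, averaged 1.83 ± 0.900 and 1.93 ± 0.737 CPM, and at this low count its interval reached from 0.573 to 1.54-fold. The filter on low counts removed the other 4 signalling members. They were AKAP12, a scaffold for protein kinase A (13 counts over the DHT and 15 over the Vehicle libraries), the phosphatase gene CDC14B (21 and 30), MAK, the male germ cell-associated kinase (41 and 48), and the receptor kinase gene MERTK (15 and 18). With no filter on low counts, they were not among the 4 members that passed in edgeR (ADAMTS1, IQGAP2, MAF and PTK2B).

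Among 5 cytoskeletal and scaffold genes, IQGAP2 rose and 4 did not pass. Over all genes 1.96% were raised, and these 5 were not tested as a group. IQGAP2, a scaffold that binds calmodulin and actin, had 72.8, 60.5, 78.4, 79.0, 55.9 and 94.9 CPM in DHT replicates 1 to 6, against 26.4, 23.4, 24.0, 40.0, 15.7 and 25.6 CPM in Vehicle replicates 1 to 6. All DHT libraries lay above all Vehicle libraries, and the largest rise of the 46 tested members was 2.85-fold (interval 2.13 to 3.81; log2 fold change 1.51, SE 0.20, adjusted p = 6.35e-04). Vehicle replicate 5 was its lowest library, and without it the log2 fold change was 1.40. It passed without any single library (adjusted p at most 0.00301). The gene runs from 76403285 to 76708132 on chromosome 5, plus strand (GRCh38), with 1.11% of its exonic bases shared with F2RL2. RefSeq gives it 3 start windows, of which the first and second are shown because the second is the only window among those matched to the raised members that holds an androgen hexamer. Capitals mark it, TGTTCT, which begins 55 bases before the start. The first window is chr5:76403035-76403334 and the second chr5:76547159-76547458 (GRCh38.p14, plus strand).
IQGAP2 first start: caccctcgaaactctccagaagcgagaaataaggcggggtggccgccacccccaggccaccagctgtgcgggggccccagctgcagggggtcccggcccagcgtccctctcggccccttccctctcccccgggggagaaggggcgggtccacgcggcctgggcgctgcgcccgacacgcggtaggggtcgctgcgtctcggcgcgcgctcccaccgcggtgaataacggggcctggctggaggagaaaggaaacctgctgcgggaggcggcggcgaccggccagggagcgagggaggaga
IQGAP2 second start: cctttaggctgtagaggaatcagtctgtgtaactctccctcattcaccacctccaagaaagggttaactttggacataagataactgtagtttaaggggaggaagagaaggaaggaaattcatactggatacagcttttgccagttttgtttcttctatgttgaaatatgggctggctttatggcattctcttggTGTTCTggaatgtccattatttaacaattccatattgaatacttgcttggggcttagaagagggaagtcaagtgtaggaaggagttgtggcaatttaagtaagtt

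The hexamer AGAACA, or TGTTCT on the other strand, is short and common. It was found in 1 of the 4 windows matched to raised members, 3 of them of IQGAP2 and 1 of RAB4A, in 3 of the 68 windows matched to members (4.41%) and in 14.8% of all 35116 RefSeq windows. The member windows were richer in G and C (median 68.0%, against 58.7% over all windows). The full 15-base element, AGAACA and TGTTCT with any 3 bases between them, contains 2 such hexamers and reads the same on both strands. It was in 0 member windows and in 1 of all windows. Of the 52 members, 40 matched a window, and these counts only describe letters near the start of the genes.

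The other cytoskeletal genes did not pass. MAP7, a microtubule protein that recruits kinesin-1, averaged 73.1 ± 5.36 CPM in DHT and 79.3 ± 10.1 CPM in Vehicle libraries (0.786 to 1.08-fold), and PDLIM5, a PDZ and LIM domain adaptor, 37.1 ± 4.50 and 36.3 ± 6.08 CPM (0.843 to 1.24-fold). HOMER2, a scaffold of postsynaptic receptors, averaged 2.63 ± 0.499 and 2.47 ± 0.443 CPM (0.822 to 1.41-fold). MYL12A, a myosin regulatory light chain, averaged 79.1 ± 11.97 and 85.5 ± 25.4 CPM (0.719 to 1.19-fold), with 135 CPM in Vehicle replicate 5 against a Vehicle median of 73.6 CPM.

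The largest group was the secretory pathway, membrane traffic and protein turnover, where 1 of 12 rose, 0 fell and 11 did not pass in edgeR. By unadjusted p (under 0.05) 3 were higher, 0 lower, and DESeq2 and limma-voom also lowered 0. Shares over all genes were 1.96% raised and 0.880% lowered in edgeR, and 6.59% higher and 5.41% lower by unadjusted p. In a group of 12, 0 lowered cannot be told from them. RAB4A, a small GTPase that returns receptors from early endosomes to the cell surface, had 146, 239, 166, 172, 126 and 157 CPM in DHT replicates 1 to 6, against 95.6, 142, 104, 98.9, 106 and 102 CPM in Vehicle replicates 1 to 6. Both replicate 2 libraries were the highest of their group, and Vehicle replicate 2 reached into the lower DHT values. The rise was 168 ± 38.5 against 108 ± 16.9 CPM (1.55-fold, interval 1.24 to 1.95, log2 fold change 0.64, SE 0.15, adjusted p = 0.0391). The call held without DHT replicate 2, DHT replicate 5, Vehicle replicate 2 or both replicate 2 libraries (0.60, adjusted p = 0.00178), and was lost without any other single library, with adjusted p between 0.0632 and 0.0978. An antisense gene, RAB4A-AS1, covers 5.47% of its exonic bases, and reads from the pair could not be told apart without knowledge of the strand counting.

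HERC3 and TPD52 came next in this group and did not pass. HERC3, a HECT-domain ubiquitin ligase, averaged 1.28 ± 0.282 CPM in DHT and 0.573 ± 0.294 CPM in Vehicle libraries, from 110 and 48 counts in all (adjusted p = 0.0787, log2 fold change 1.04, SE 0.29). Of 12 omissions of a single library, HERC3 passed in 1, that of DHT replicate 2 (adjusted p = 0.0496). With a replicate block in edgeR it passed too (adjusted p = 0.0322), but not with the block and without both replicate 2 libraries (0.0997). A second identifier with the same symbol, listed at 0 in all libraries, covers 69.5% of its exonic bases, so the level of HERC3 is uncertain. TPD52, a vesicle-traffic protein gained in many breast and prostate tumours, averaged 172 ± 24.2 and 134 ± 20.9 CPM (log2 fold change 0.36, SE 0.13, adjusted p = 0.223).

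Genes that move proteins into and out of the endoplasmic reticulum did not pass. SEC24D, a cargo subunit of COPII coats, averaged 58.8 ± 6.87 CPM in DHT and 51.5 ± 10.3 CPM in Vehicle libraries, and LMAN1, the cargo receptor ERGIC-53, 148 ± 13.0 and 137 ± 20.4 CPM. SPCS3 of the signal peptidase averaged 108 ± 11.8 and 105 ± 18.3 CPM, and SRP19 of the signal recognition particle 39.7 ± 7.15 and 43.0 ± 16.3 CPM. NGLY1, which strips N-glycans from misfolded proteins, averaged 81.1 ± 12 and 75.9 ± 14.3 CPM. The ubiquitin-conjugating enzyme gene of the endoplasmic reticulum UBE2J1 was level, at 94.8 ± 6.41 CPM in DHT and 94.8 ± 6.85 CPM in Vehicle libraries (0.874 to 1.15-fold). APPBP2, which binds the amyloid precursor protein, averaged 100.2 ± 7.17 and 102 ± 9.97 CPM (0.853 to 1.14-fold). VAPA, a tether of membrane contact sites, averaged 192 ± 22.5 and 210 ± 25.2 CPM, and TMEM50A 91.4 ± 13.4 and 103 ± 12.97 CPM. Of these 9, only SRP19 had an interval that reached past a 1.5-fold change, at 0.658 to 1.298-fold.

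Both enzymes that make UDP-GlcNAc, the sugar donor for glycosylation, did not pass. UAP1, which makes UDP-GlcNAc itself and is a marker of androgen action in prostate cancer, averaged 132 ± 9.30 CPM in DHT and 105 ± 10.8 CPM in Vehicle libraries (1.26-fold, interval 1.09 to 1.46; log2 fold change 0.33, SE 0.10, adjusted p = 0.113). Vehicle replicate 5 was its highest Vehicle library at 123 CPM, and without it UAP1 passed (0.38, adjusted p = 0.0299). PGM3, the phosphomutase one step before UAP1, averaged 63.6 ± 4.93 and 70.9 ± 10.4 CPM (0.755 to 1.07-fold).

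Of 8 genes of metabolism, redox balance and transport, 6 were tested and 0 passed in edgeR, with 1 higher and 0 lower at an unadjusted p under 0.05, and 0 passing in DESeq2 or limma-voom. These compare with 2.84% of all genes passing in edgeR, and 6.59% higher and 5.41% lower at an unadjusted p under 0.05. SLC26A2, a sulfate transporter, was low, at 2.50, 0.820, 1.54, 1.14, 2.32 and 1.29 CPM in DHT replicates 1 to 6 and 0.359, 0.297, 0.990, 0.811, 0.876 and 1.28 CPM in Vehicle replicates 1 to 6. Its groups overlapped, and its log2 fold change of 1.14 (SE 0.37) had an adjusted p of 0.157. With a replicate block in edgeR SLC26A2 passed (adjusted p = 0.0469). With the block and without both replicate 2 libraries it did not (adjusted p = 0.131). GSR, glutathione reductase, averaged 200 ± 33.4 CPM in DHT and 180 ± 27.3 CPM in Vehicle libraries, GPD1L, a glycerol-3-phosphate dehydrogenase, 171 ± 12.7 and 184 ± 30.2 CPM, and ANKH, which carries pyrophosphate out of cells, 8.25 ± 1.14 and 7.82 ± 1.42 CPM. PLPP1, a lipid phosphate phosphatase, averaged 0.841 ± 0.402 and 1.09 ± 0.470 CPM, with an interval of 0.467 to 1.25-fold. DBI, an acyl-CoA binding protein, averaged 482 ± 60.5 and 558 ± 259 CPM, and its Vehicle spread came from replicate 5, at 1079 CPM against a Vehicle median of 449 CPM. HPGD, which inactivates prostaglandins, had 11 counts over the DHT and 14 over the Vehicle libraries. ALDH1A3, which makes retinoic acid, had 20 counts over the DHT and 4 over the Vehicle libraries, with 1 to 7 per DHT library and 0 to 2 per Vehicle library, and was removed by the filter on low counts.

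Of DNA end joining, centromere and ribosome genes, 0 of 5 passed in edgeR, DESeq2 or limma-voom, with 1 higher and 0 lower at an unadjusted p under 0.05. For all genes in edgeR the shares passing, higher and lower were 2.84%, 6.59% and 5.41%. RRP12, which carries small ribosomal subunits out of the nucleus, averaged 57.6 ± 11.3 CPM in DHT and 42.6 ± 10.0 CPM in Vehicle libraries and was higher in DHT for all 6 replicate numbers (log2 fold change 0.43, SE 0.17, adjusted p = 0.283). PA2G4, a growth regulator that binds ERBB3 and ribosomes, averaged 202 ± 52.1 and 164 ± 37.8 CPM (0.945 to 1.61-fold). The Ku subunits that bind broken DNA ends were among the highest members, XRCC6 (Ku70) at 829 ± 201 and 870 ± 223 CPM and XRCC5 (Ku80) at 761 ± 197 and 792 ± 171 CPM. CENPN, a centromere protein, averaged 27.9 ± 4.29 CPM in DHT and 31.9 ± 6.21 CPM in Vehicle libraries.

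The last 2 members are secreted or sit on the cell surface, and 1 of them rose. Over all genes 1.96% were raised, and 2 genes are too few to describe a group. ADAMTS1, a secreted metalloprotease that cuts proteoglycans of the matrix, had 84.0, 45.5, 64.0, 59.7, 81.8 and 78.3 CPM in DHT replicates 1 to 6, against 34.9, 16.02, 25.9, 22.6, 17.2 and 30.8 CPM in Vehicle replicates 1 to 6. The replicate 2 library was the lowest of each group, yet the groups did not overlap. The rise was 2.81-fold (interval 2.06 to 3.84; log2 fold change 1.49, SE 0.21, adjusted p = 0.00114), passing without any single library (1.39 to 1.62, adjusted p at most 0.00568). The gene lies on chromosome 21, minus strand, from 26835755 to 26845409 on GRCh38, with no exon shared. B2M, the light chain of MHC class I, averaged 459 ± 49.0 and 509 ± 229 CPM and did not pass, with 945 CPM in Vehicle replicate 5 against a Vehicle median of 450 CPM.

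**Figure D3:**
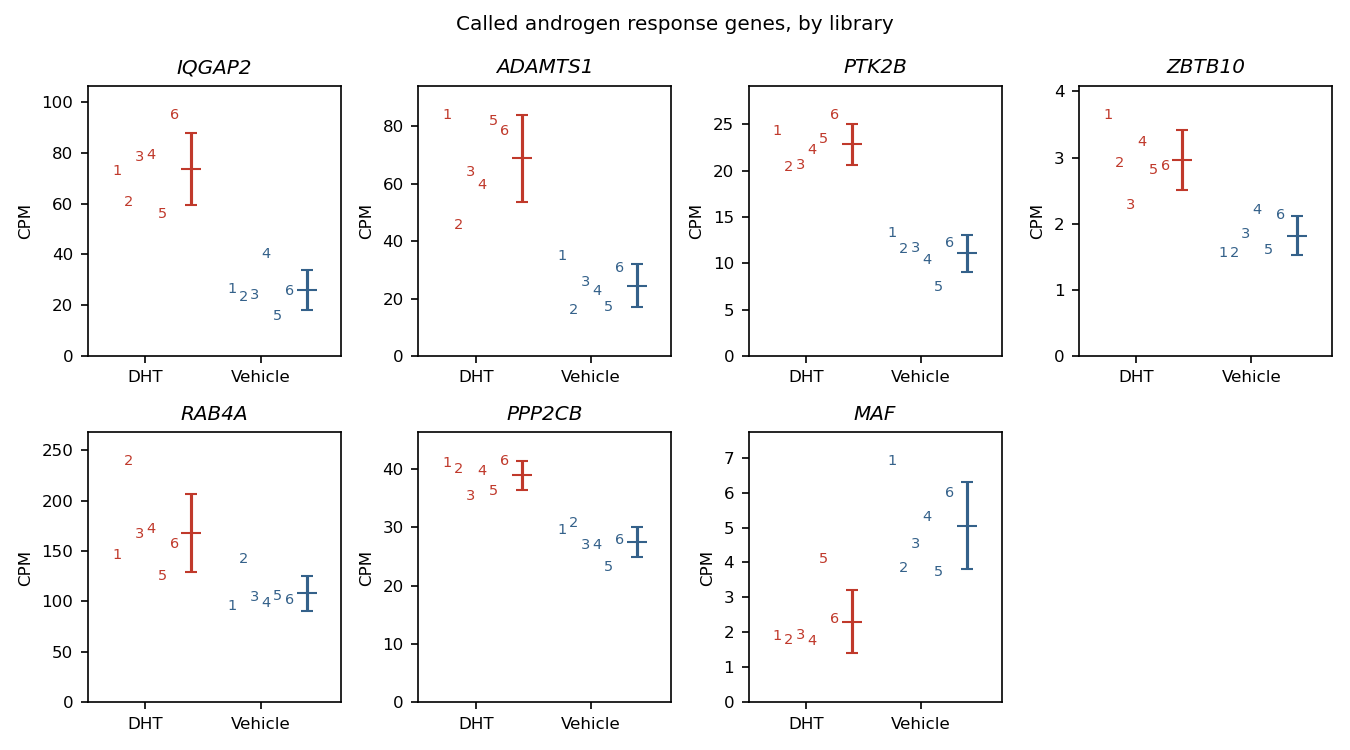
CPM in each library for the 7 members that passed. Digits are replicate numbers, DHT in red and Vehicle in blue, and the bars beside them are mean and SD (n = 6 each). The digit groups are apart in IQGAP2, ADAMTS1, PTK2B, ZBTB10 and PPP2CB and overlap in RAB4A and MAF.

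The 39 non-passing members were described by their 95% intervals. In 25 of them (64.1%) the interval lay within a 1.5-fold change either way, against 47.25% of all non-passing genes, and in 36 (92.3%) within a 2-fold change, against 86.6%. The interval narrows with expression. Among members averaging at least 50 CPM, 21 of 28 non-passing ones stayed within 1.5-fold (75%), against 66.4% of genes at that level. The exceptions to the 2-fold bound were HERC3, SLC26A2 and PLPP1, all near 1 CPM. GNAI3, PDLIM5, APPBP2 and UBE2J1 had intervals within a 1.25-fold change. Counting an unadjusted p under 0.05, 12 of 46 members stood higher and 1 lower (26.1% and 2.17%), against 6.59% and 5.41% of all genes.

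**Figure D4:**
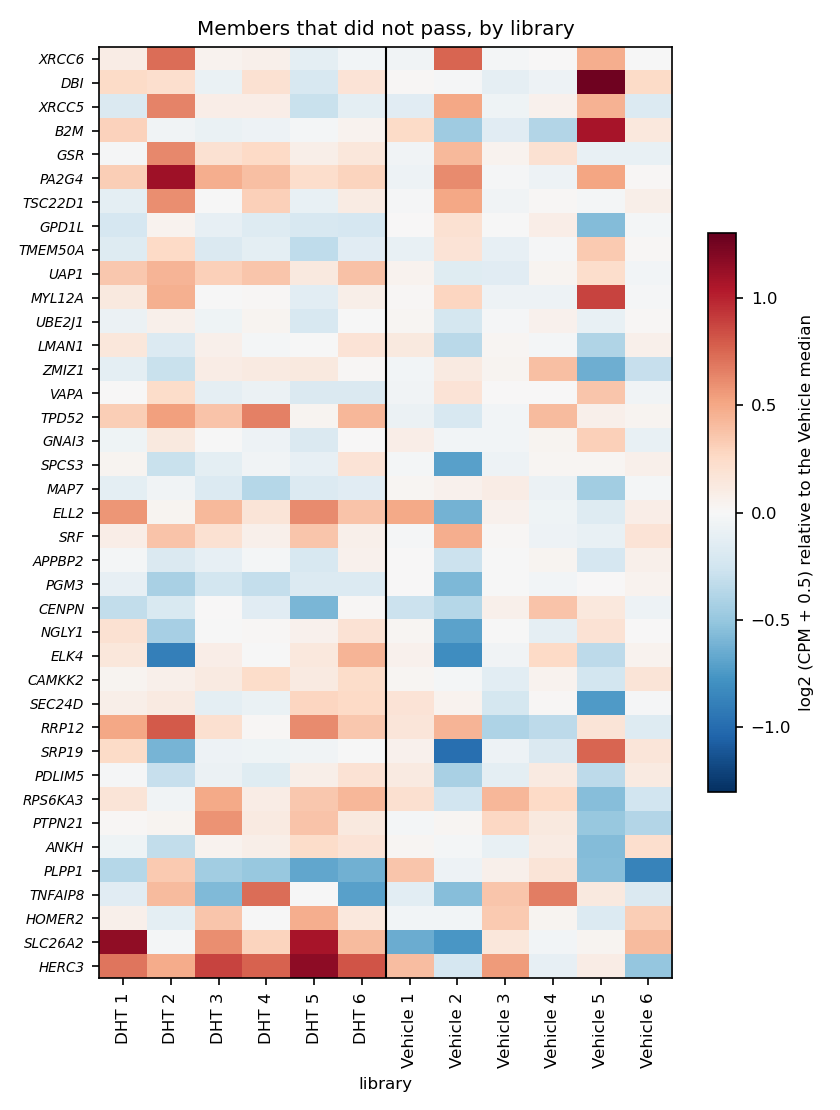
Log2 of CPM + 0.5 relative to the Vehicle median for the 39 members that did not pass, DHT libraries left of the line and Vehicle libraries right, ordered from high to low Vehicle level per kilobase. XRCC6, XRCC5 and PA2G4 are red in both replicate 2 libraries, and DBI and B2M are red in Vehicle replicate 5.

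Some members, a smaller share than of all genes, stood apart in both replicate 2 libraries. In 6 tested members (SRF, TSC22D1, GSR, PA2G4, XRCC5 and XRCC6) both replicate 2 libraries lay above all others, and in 5 (ELK4, NGLY1, SPCS3, SRP19 and PGM3) below all others, against 22.0% and 20.3% of all genes. XRCC6 reached 1231 CPM in DHT replicate 2 and 1254 CPM in Vehicle replicate 2, against group medians of 772 and 743 CPM. Vehicle replicate 5 was the lowest of the 12 libraries for 15 of the 46 tested members, a larger share than the 15.5% of all genes. It was the highest for 7 of the 46, against 17.7% of all genes. It was also the lowest Vehicle library of IQGAP2, PTK2B and PPP2CB. Without it their log2 fold changes were 1.40, 0.95 and 0.45, and all 3 passed.

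Per kilobase of the gene length given in the count table, the members covered a wide range. That length was 3244 bases for XRCC6 and 2509 for DBI, against transcript lengths of 1756 and 688 bases in the authors' deposited table. The order below is by the count table's length, and another length can give another order. XRCC6 was highest, at 256 ± 61.95 CPM per kb in DHT and 268 ± 68.7 in Vehicle libraries, followed by DBI at 192 ± 24.1 and 223 ± 103, XRCC5 at 139 ± 36.0 and 145 ± 31.4 and B2M at 75.5 ± 8.07 and 83.8 ± 37.6. The mean ± SD ranges of XRCC6 and DBI overlapped, and these genes were not compared within each library. DBI stood at 1079 CPM in Vehicle replicate 5, which widened its Vehicle SD. ADAMTS1 and IQGAP2 were at ranks 33 and 34 of 52 in the Vehicle order, and at ranks 24 and 26 in the DHT order. They averaged 9.76 and 9.35 CPM per kb in DHT libraries and 3.48 and 3.28 CPM per kb in Vehicle libraries, and did not differ from each other beyond their spread. RAB4A was the only raised member among the 10 highest of the Vehicle order.

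The members are spread over 19 chromosomes. Chromosome 8 carries 5 of them, PTK2B, PPP2CB, GSR, TPD52 and ZBTB10. Of these 5, 3 rose, against 3.30% of all 545 tested genes there and 13.0% of all tested members. It is named as the chromosome with the most raised members, and chromosomes were not compared by a test. Of the 3, ZBTB10 passed in only 2 of 12 omissions of a library, and ZBTB10 and PPP2CB do not pass in the authors' deposited table. GSR and PPP2CB lie 46.6 kb apart, yet PPP2CB rose and GSR did not pass, and TPD52 lies 254 kb from ZBTB10.

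The authors' deposited table, a comparison of their own with no model named in it, lists 43 of the 52 members. It marks 5 of them as changed, IQGAP2, ADAMTS1, PTK2B and RAB4A upward and MAF downward, out of 619 of its 14559 genes (4.25%). The log2 fold changes there are 1.46, 1.45, 1.05, 0.56 and -1.17. For 31 of the 43 members the adjusted p in the authors' deposited table is 1.

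A further 47 genes of the androgen response, written from general knowledge with lipid, keratin and prostate-marker genes included, were counted in the same fit. TARP was not matched. Of 41 tested, 5 rose, 0 fell and 36 did not pass in edgeR, against 1.96% raised and 0.880% lowered over all genes. This list too was chosen with earlier results of these data known, and the difference in shares was not tested. By unadjusted p (under 0.05) 10 stood higher and 1 lower, against 6.59% and 5.41% of all genes, and DESeq2 and limma-voom also lowered 0. FKBP5, a co-chaperone of steroid receptors, had the largest rise (350 ± 63.9 against 82.4 ± 15.2 CPM), followed by the kinase gene SGK1, near the limit of detection (0.937 ± 0.153 against 0.334 ± 0.159 CPM), LIFR, the receptor for leukemia inhibitory factor (5.05 ± 2.03 against 1.74 ± 0.876 CPM), and AZGP1, a secreted zinc-binding glycoprotein (1014 ± 134 against 530 ± 138 CPM), each as DHT against Vehicle. The call of LIFR (adjusted p = 0.0319) was lost without DHT replicates 1, 4 or 6 or Vehicle replicates 3, 5 or 6 (adjusted p 0.0526 to 0.0799). Only 3 genes of this list passed without DHT replicate 1, 4 or 6 or Vehicle replicate 3 or 6.

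**Figure D5:**
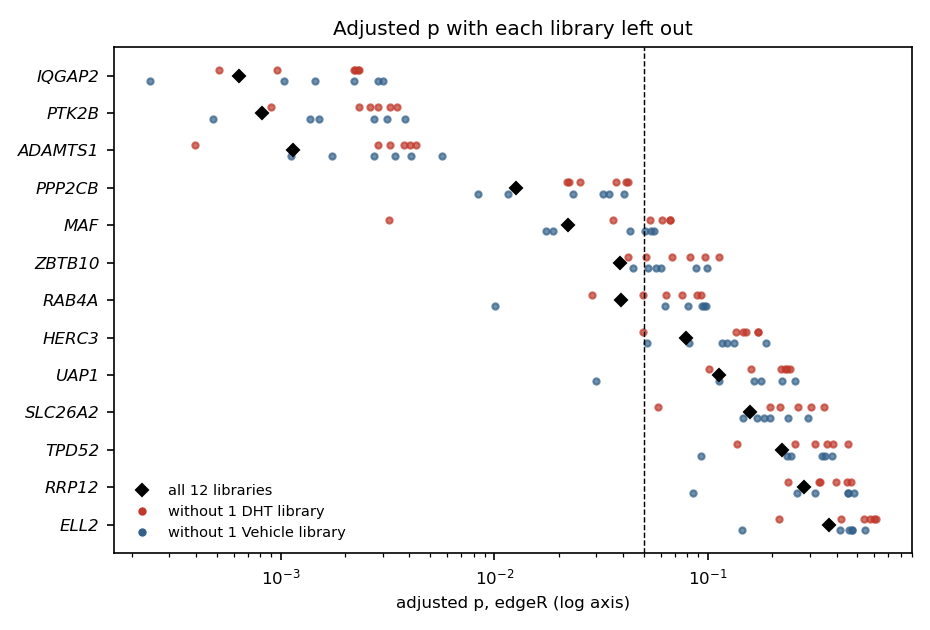
Adjusted p (edgeR, log axis) of the 13 members with an unadjusted p under 0.05, with all 12 libraries (diamonds) and with each DHT (red) or Vehicle (blue) library left out. The dashed line is 0.05. IQGAP2, PTK2B, ADAMTS1 and PPP2CB stay left of it throughout.

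IQGAP2, PTK2B, ADAMTS1 and PPP2CB passed in all 12 omissions of a single library, while ZBTB10 passed in 2, RAB4A in 3 and MAF in 5. The number of raised members was 4 without DHT replicate 1, 4 or 6 or Vehicle replicate 1, 3 or 6, and otherwise 5 or 6.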

How the data were processed

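RNA of 12 MDA-MB-453 libraries (6 DHT, 6 Vehicle) came from 1 µg per library and was sequenced as 40 bp single-end reads, per the labels' protocols. STAR, featureCounts and GRCh38 are named without versions in the submitters' processing notes, and the authors deposited their gene counts. Between 39.6% and 46.7% of nonzero values per library were not whole (tolerance 0.005), so the deposited values were taken as estimated counts and rounded. The sources used here do not give strand counting, so overlapping and antisense genes are uncertain. A record broken over 3 lines was left out. The authors also deposited their own comparison, with log2 fold changes and adjusted p-values, per the file headers. GC percent in that table, per the file headers, was not used in a result, and transcript length was only cited beside the levels per kilobase.

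Gene symbols came from a table of identifiers, which matched 60400 of 60670. Low genes were removed by filterByExpr and the rest tested in edgeR 4.0.16 after TMM scaling (quasi-likelihood F-test, group as the only term, Benjamini-Hochberg over 16355 genes, R 4.3.3). SEs were taken by dividing the log2 fold change by the root of F, and 95% intervals use the test's degrees of freedom. CPM are counts over TMM-scaled totals, as mean ± SD. The fits were run on simulated counts without a replicate effect. They therefore do not cover the replicate 2 libraries and Vehicle replicate 5, which stood apart here. One count was worth 0.0389 to 0.230 CPM. Floors cover counting error only.

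Members, lists and tests were chosen with earlier results of these data known. Members with an adjusted p under 0.05 are given by library, those with an unadjusted p under 0.05 by means and fold change, and the rest by means. Of the further list, genes with an adjusted p under 0.05 are named. Some results are not reported here. Alternatives were RLE scaling, no filter, DESeq2 1.42.0, limma-voom (limma 3.58.1), a replicate block, omission of libraries and an adjusted p under 0.01. Promoter sequences are from RefSeq (GRCh38.p14).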

Additional observations from a re-analysis of the deposited data

Results flagged for a closer look

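Within a group of 6 libraries, a library was picked out where its gap to the nearest other exceeded Dixon's 95% critical value as a share of the group's range, which chance alone gives in about 1 of 20 groups. Among the members that passed, this held for MAF in DHT replicate 5, at 4.09 CPM with the other DHT libraries between 1.75 and 2.38 CPM, and for RAB4A in Vehicle replicate 2, at 142 CPM with the other Vehicle libraries between 95.6 and 106 CPM. Without DHT replicate 5 the log2 fold change of MAF was -1.37, and without Vehicle replicate 2 that of RAB4A was 0.73. The cause of either value was not tested.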

How the results depend on the processing

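The numbers of members raised (6) and lowered (1) stayed within 1.5 times under RLE scaling, DESeq2, limma-voom and omission of both replicate 2 libraries. Members raised numbered 3 with no filter on low counts, 10 with a replicate block and 3 at an adjusted p under 0.01, and 4 to 6 with 1 library left out. Members lowered numbered 0 with a replicate block without both replicate 2 libraries and 0 at an adjusted p under 0.01, and 0 to 1 with 1 library left out. In the further list, genes raised (5) numbered 8 in DESeq2, 9 with the replicate block, 2 at an adjusted p under 0.01 and 3 to 7 with 1 library left out. Genes lowered there (0) numbered 1 with the replicate block and 1 with the block without both replicate 2 libraries, and stayed at 0 with any 1 library left out. Of all genes, those raised (320) numbered 514 in DESeq2, 764 with the replicate block, 608 without both replicate 2 libraries, 535 with both changes, 137 at an adjusted p under 0.01 and 189 to 434 with 1 library left out. Those lowered (144) numbered 90 with no filter, 264 in DESeq2, 522 with the replicate block, 312 without both replicate 2 libraries, 253 with both changes, 58 at an adjusted p under 0.01 and 86 to 199 with 1 library left out. The cause was not tested.

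Same-numbered libraries correlated in their deviations from the group means at 0.542, 0.886, 0.469, 0.270, -0.262 and 0.516 for numbers 1 to 6, and the numbers were not taken as pairs because number 5 fell under the 0.1 asked of every pair. The other 5 numbers were above it, and the labels do not say what a number marks. The replicate block added ELL2, HERC3, RRP12 and SLC26A2 to the 7 members that passed (7.86% of all genes called). With the block and without both replicate 2 libraries, RRP12 still passed (adjusted p = 0.0184), while ELL2 (0.145), HERC3 (0.0997), SLC26A2 (0.131), ZBTB10 (0.0882) and MAF (0.0638) did not. DHT and Vehicle libraries each matched their own number best in 3 of 6 cases. Low members are limited by depth, since 1 count was worth up to 0.230 CPM.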
